A study of Mus musculus with 4 samples.

Results

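Cyclic nucleotide phosphodiesterases were examined in N9 cells, mouse microglia grown as an immortalised line, that had been given nimodipine. Nimodipine belongs to the dihydropyridines, drugs known as blockers of L-type calcium channels. The set consisted of 9 genes, Pde1b, Pde2a, Pde3b, Pde4a, Pde4b, Pde4d, Pde7a, Pde7b and Pde8a, and all 9 were found among the 22180 genes with a probe set that carried a single gene symbol. They were chosen by family, and on the measured differences from vehicle at both doses, at which Pde7b was already known to be lower. Pde1b was included also because dihydropyridines can inhibit PDE1. The differences between nimodipine and vehicle are therefore given for them as a description, and counts from the fits over all genes are printed only beside the share of all genes. Pde7a alone of the 9 had more than 1 probe set, and the brighter of its 2 was used.

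The groups were N9 cells given 10 µM nimodipine (1 array), N9 cells given 20 µM nimodipine (1 array) and N9 cells given vehicle solution (2 arrays). All were grown in DMEM with fetal bovine serum, penicillin and streptomycin. The labels mention a respective vehicle but do not match either vehicle array to a dose. The vehicle arrays may therefore be controls of different doses, and their distance from each other may include a difference between vehicles. No time of exposure is given in the sources used here, and nothing in the labels says that the vehicle arrays came from separate cultures, so the spread between them may be technical. Values are log2 expression per probe set, made by the authors with RMA. Differences are taken here only between arrays, for the same probe set, because probe sets differ in how brightly they hybridise. Bright and dim, or a place above or below the median of all deposited values, describe the signal of a probe set. They do not measure the amount of a transcript. In RNA from a whole culture, fewer cells that carry a transcript and less of it per cell cannot be told apart.

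Phosphodiesterases break down the second messengers cAMP and cGMP and so end the signals that adenylyl and guanylyl cyclases start. The PDE4, PDE7 and PDE8 enzymes act on cAMP alone. PDE1 enzymes are switched on by calcium and calmodulin and act on both nucleotides, PDE2 is stimulated by cGMP, and PDE3 degrades cAMP and is inhibited by cGMP. In microglia and macrophages a rise in cAMP generally dampens the output of inflammatory cytokines, and inhibitors of PDE4 are used for that purpose in inflammatory diseases.

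Promoter sequences are shown for Pde7b and Pde4b, the members with the lowest values relative to vehicle at 10 µM. They come from RefSeq (GRCm38.p6) and run from 250 bases before to 50 bases after an annotated start, 5′ to 3′ on the strand of the gene. Capitals mark TGACG or its reverse complement CGTCA, the core of the cAMP response element to which CREB binds. Pde7b lies on chromosome 10 from 20397052 to 20725078 on the minus strand, and its window (chr10:20548279-20548578) belongs to a start inside the annotated gene. Pde4b lies on chromosome 4 from 102087332 to 102607275 on the plus strand. It had 4 windows, all inside the gene, and the first (chr4:102421305-102421604) is the only one of the 4 with a match.
Pde7b: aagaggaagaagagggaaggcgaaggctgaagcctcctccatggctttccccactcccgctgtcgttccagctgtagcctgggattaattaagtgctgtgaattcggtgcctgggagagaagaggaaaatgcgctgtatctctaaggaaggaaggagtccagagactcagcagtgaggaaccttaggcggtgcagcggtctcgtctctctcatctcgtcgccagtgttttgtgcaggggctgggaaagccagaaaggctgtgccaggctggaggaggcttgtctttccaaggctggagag
Pde4b: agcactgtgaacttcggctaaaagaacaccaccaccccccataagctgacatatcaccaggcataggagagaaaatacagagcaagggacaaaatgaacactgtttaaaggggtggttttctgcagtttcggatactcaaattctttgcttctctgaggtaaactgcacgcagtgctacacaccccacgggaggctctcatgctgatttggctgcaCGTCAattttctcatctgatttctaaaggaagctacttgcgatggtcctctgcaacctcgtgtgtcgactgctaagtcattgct
The match in Pde4b begins 34 bases before the start, and the Pde7b window holds none. RefSeq windows were found for 7 of the 9 genes, 18 windows in all, the exceptions being Pde3b and Pde7a. A TGACG or CGTCA was present in 4 of the 18, 1 each of Pde2a, Pde4a, Pde4b and Pde8a, beside 20.8% of all 32851 windows. The full element TGACGTCA was present in 0 of the 18, beside 1.79% of all windows. The pattern TGANTCA, where N is any base, covers the AP-1 motif and other sequences. It was also present in 0, beside 7.81% of all windows. Both strands were searched, and each full element would also be counted as a core match. A match is a description of the sequence only.

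The 10 µM array stood apart from the others over all genes. For 348 of 22180 genes (1.57%) it lay at least 1 log2 unit from the vehicle mean. The 20 µM array did so for 19 genes (0.0857%). Vehicle 2 differed that much from vehicle 1 for 25 genes (0.113%), a count of 1 array against 1. Counted in that way, the 20 µM array lay past 1 for 37 genes against vehicle 2 and for 38 against vehicle 1. With both nimodipine arrays set against both vehicle arrays, limma called 0 of 22180 genes at an adjusted p of 0.05 (0%), and 1191 (5.37%) had an unadjusted p under 0.05. Microglial and macrophage markers such as Cd68, Csf1r, Ptprc and Trem2 were bright on all 4 arrays. Adgre1, P2ry12 and Tmem119 lay below the median of all deposited values, 5.04, on every array. Of the 13 measured markers of this list, 9 were lower and 4 higher at 10 µM, with median differences of -0.11 at 10 µM and 0.04 at 20 µM. Itgam, a subunit of complement receptor CR3, was 1.71-fold lower at 10 µM (log2 difference -0.77) and differed by -0.14 at 20 µM. Ptprc, the leukocyte antigen CD45, differed by -0.43 and -0.10. For Itgam, Ptprc and the dim P2ry12 both nimodipine arrays lay below both vehicle arrays, as for 18.2% of all genes. For Fcer1g, Spi1 and Tyrobp both lay above, as for 19.2% of all genes. These 3 differed by 0.25, 0.16 and 0.06 at 10 µM and by 0.06, 0.11 and 0.12 at 20 µM. The markers' part in the values below was not tested.

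Pde7b, a cAMP-specific enzyme with high affinity for its substrate, had the lowest values relative to vehicle of the 9 genes at both doses. Its log2 expression was 7.14 at 10 µM and 8.32 at 20 µM, against 9.07 and 9.02 in the vehicle arrays. Both nimodipine arrays lay below both vehicle arrays, and the 20 µM array lay between the 10 µM array and vehicle. Relative to the vehicle mean its level was 3.75-fold lower at 10 µM and, at 20 µM, 1.65-fold lower, log2 differences of -1.91 and -0.73. Set against vehicle 1 and vehicle 2 singly, the differences were -1.93 and -1.88 at 10 µM and -0.75 and -0.70 at 20 µM. The vehicle arrays differed by -0.05 from each other. Among genes whose mean reached the median of all values, the 95th percentile of the size of the vehicle difference was 0.41. The mean difference between nimodipine and vehicle was -1.32 ± 0.36 (limma SE, 2 arrays per group), and most of that error is the gap between the doses. Ranked from the lowest difference, Pde7b was number 21 of 22180 genes at 10 µM and number 45 at 20 µM. Because Pde7b entered the set for being lower at both doses, these values describe it and support nothing further.

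Pde7a, the closest relative of Pde7b, showed no such separation. Its values were 6.79 at 10 µM and 6.93 at 20 µM, against 7.08 and 6.87 in the vehicle arrays. The 20 µM array lay between the vehicle arrays, and the 10 µM array lay below the lower of them by less than the distance between them. A second, dimmer probe set of Pde7a gave 4.35 at 10 µM and 4.38 at 20 µM, against 4.04 and 4.31 in vehicle. Its differences from the vehicle mean were 0.17 and 0.20, opposite in sign to the -0.18 and -0.05 of the brighter one.

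**Figure D1:**
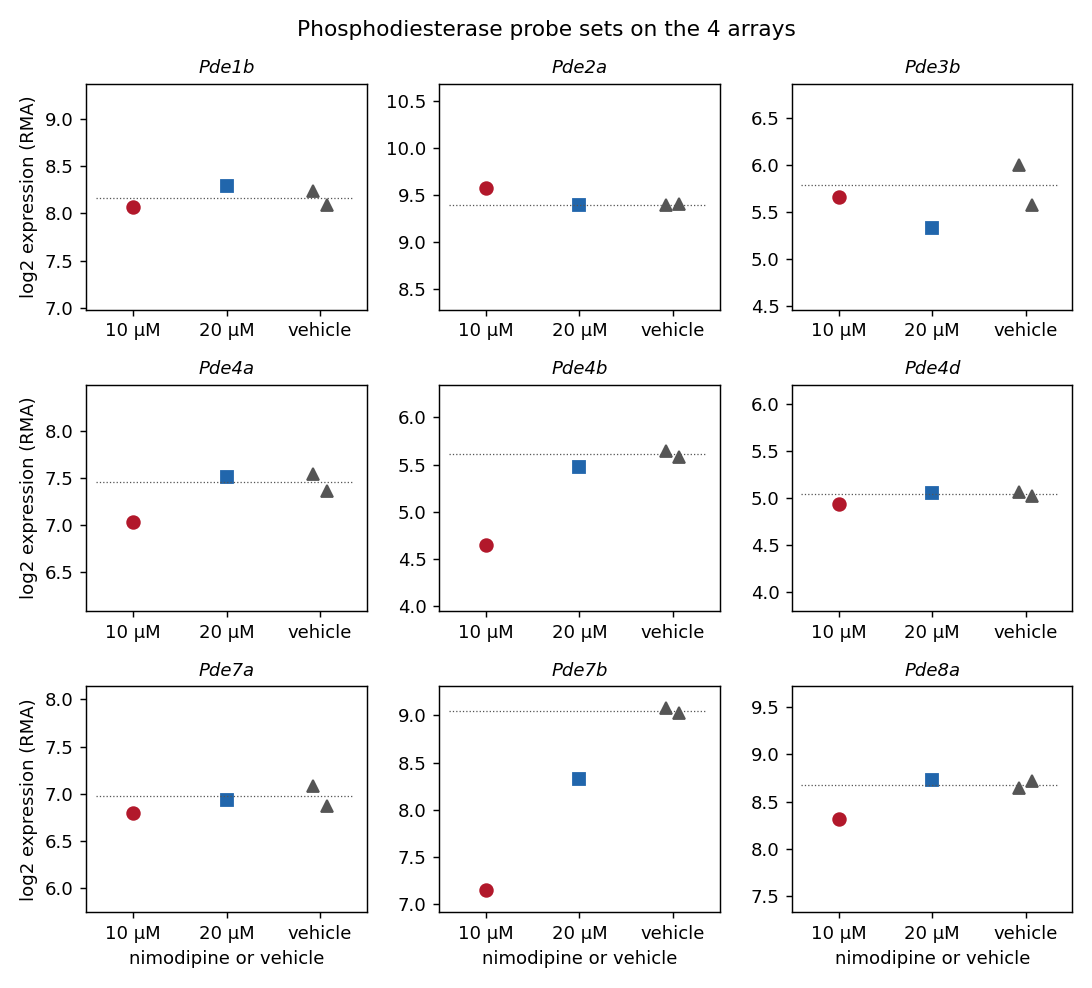
Log2 expression of the 9 phosphodiesterase genes on each array, with 10 µM nimodipine (circle), 20 µM nimodipine (square) and the 2 vehicle arrays (triangles, mean as a dotted line); every panel spans the same range of log2 units. Pde7b stood at 7.14 and 8.32 in nimodipine, below both vehicle arrays (9.07 and 9.02), and Pde4b at 10 µM stood at 4.64, while the other panels show smaller gaps.

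Pde4b, the PDE4 gene that is induced in macrophages by lipopolysaccharide and needed for their full TNF response, was the next lowest at 10 µM. Its values were 4.64 at 10 µM and 5.47 at 20 µM, against 5.65 and 5.58 in the vehicle arrays. Both nimodipine arrays lay below both vehicle arrays, narrowly so at 20 µM. At 10 µM the level was 1.96-fold lower than the vehicle mean, a log2 difference of -0.97, and at 20 µM the difference was -0.14, beside -0.07 between the vehicle arrays. The 10 µM value lay below the median of all deposited values, where RMA folds can be too small.

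Pde4a and Pde4d encode further cAMP-specific enzymes of the same subfamily. Pde4a had 7.04 at 10 µM and 7.51 at 20 µM, against 7.54 and 7.37 in vehicle. Only the 10 µM array lay outside the vehicle pair, with a difference of -0.42 from their mean, while the vehicle arrays differed by -0.17. Pde4d had 4.93 at 10 µM and 5.05 at 20 µM, against 5.06 and 5.02 in vehicle. Its differences of -0.11 and 0.00 concern a dim probe set, the only member with a mean below the median of all values.

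Pde8a, a cAMP-specific enzyme that standard PDE inhibitors such as IBMX do not block, was also lower at 10 µM only. Its values were 8.32 at 10 µM and 8.73 at 20 µM, against 8.64 and 8.71 in vehicle. The difference was -0.36 at 10 µM and 0.05 at 20 µM, beside 0.08 between the vehicle arrays. The 20 µM array lay above both vehicle arrays, by 0.02 over vehicle 2, the higher of them.

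The remaining members are regulated by calcium-calmodulin or cGMP. Pde1b, the calcium-activated member and the one whose family dihydropyridines can inhibit, had 8.06 at 10 µM and 8.29 at 20 µM, against 8.24 and 8.09 in vehicle. The differences, -0.10 and 0.13, had opposite signs, and both were smaller in size than the distance of -0.15 between the vehicle arrays. The mean difference of Pde1b between nimodipine and vehicle was 0.01 ± 0.15 (limma SE, 2 arrays per group). Pde2a, the cGMP-stimulated enzyme, had 9.58 at 10 µM and 9.40 at 20 µM, against 9.40 and 9.40 in vehicle. It was the only member above the vehicle mean at 10 µM, by 0.17 in log2 units, with a distance of 0.01 between the vehicle arrays. Pde3b, the cGMP-inhibited enzyme known for its part in insulin action on fat cells, had 5.66 at 10 µM and 5.33 at 20 µM, against 6.00 and 5.58 in vehicle. The 20 µM array was the lowest of the 4, with a difference of -0.46 from the vehicle mean, but the vehicle arrays themselves differed by -0.42. Pde3b and Pde2a were the only members with a lower value at 20 µM than at 10 µM, with differences of -0.33 and -0.18 between the doses.

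Counted together, 8 of the 9 genes were lower than the vehicle mean at 10 µM and 5 of 9 at 20 µM, beside 47.6% and 50.7% of all genes. The median difference was -0.18 at 10 µM and 0.00 at 20 µM, beside 0.01 and 0.00 over all genes. Against vehicle 2 alone the 10 µM median was -0.09, and against vehicle 1 alone it was -0.32. At 20 µM the count was 4 with probe sets averaged per gene, 6 with equal array medians, and 4 or 6 against a single vehicle array. At 10 µM it was 7 against vehicle 2 alone. Past a log2 difference of 1 there was 1 member at 10 µM, Pde7b, beside 1.57% of all genes, and 0 at 20 µM, beside 0.0857%. Pde4b, at -0.97, lay just inside that limit; with equal array medians or cyclic loess it lay at -1.01, which made the count 2. Past 1.5-fold there were 2 members at 10 µM (6.77% of all genes), Pde7b and Pde4b, and 1 at 20 µM (1.23%), Pde7b. Nimodipine and vehicle arrays did not overlap for 2 of the 9 genes, beside 37.4% of all genes, and in both the nimodipine arrays were the lower ones (18.2% of all genes).

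In the comparison of nimodipine with vehicle, 0 of 9 members passed the adjusted threshold (limma, 0% of all genes) and 1 had an unadjusted p under 0.05 (5.37% of all genes). A fit with the doses as separate groups, in which a single array is taken to vary as the vehicle arrays do, called 2 members at 10 µM, Pde7b and Pde4b, beside 1.59% of all genes (limma, 1 residual degree of freedom). At 20 µM it called 0 members and 0% of all genes, and 1 member had an unadjusted p under 0.05, beside 6.39%. These counts repeat the contrast by which Pde7b was chosen, so nothing is read from them. Between the doses, Pde7b was higher at 20 µM than at 10 µM by 1.18 on the log2 scale and Pde4b by 0.83. Pde7b was the only member of the 9 past 1 between the doses, beside 1.64% of all genes.

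**Figure D2:**
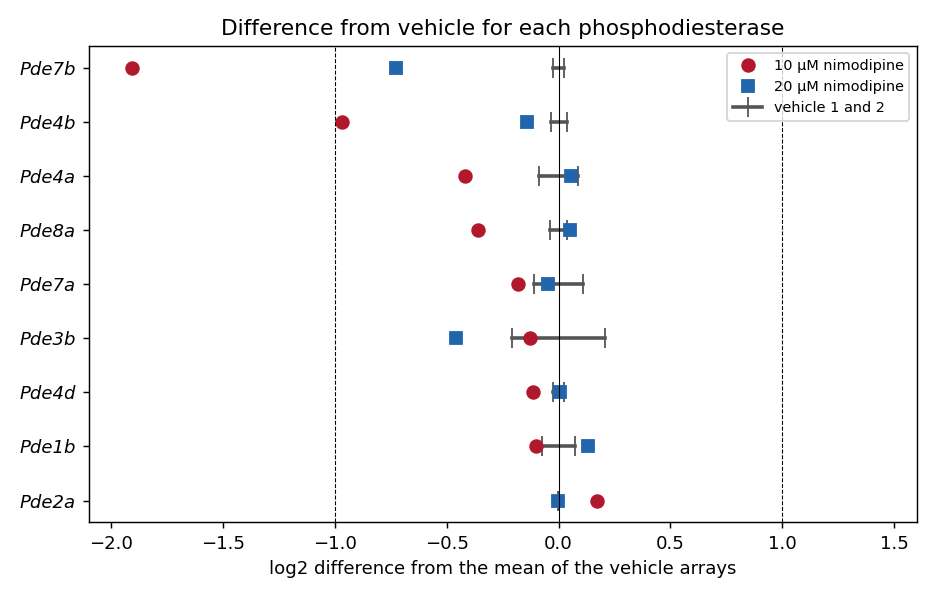
Log2 difference of each phosphodiesterase from the mean of the vehicle arrays (horizontal axis) at 10 µM nimodipine (circles) and 20 µM nimodipine (squares), with the 2 vehicle arrays as the ends of the grey bars; dashed lines mark a difference of 1. Pde7b lies at -1.91 and -0.73, Pde4b at -0.97 and -0.14, and the 20 µM value of Pde3b at -0.46 beside a wide vehicle bar.

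**Figure D3:**
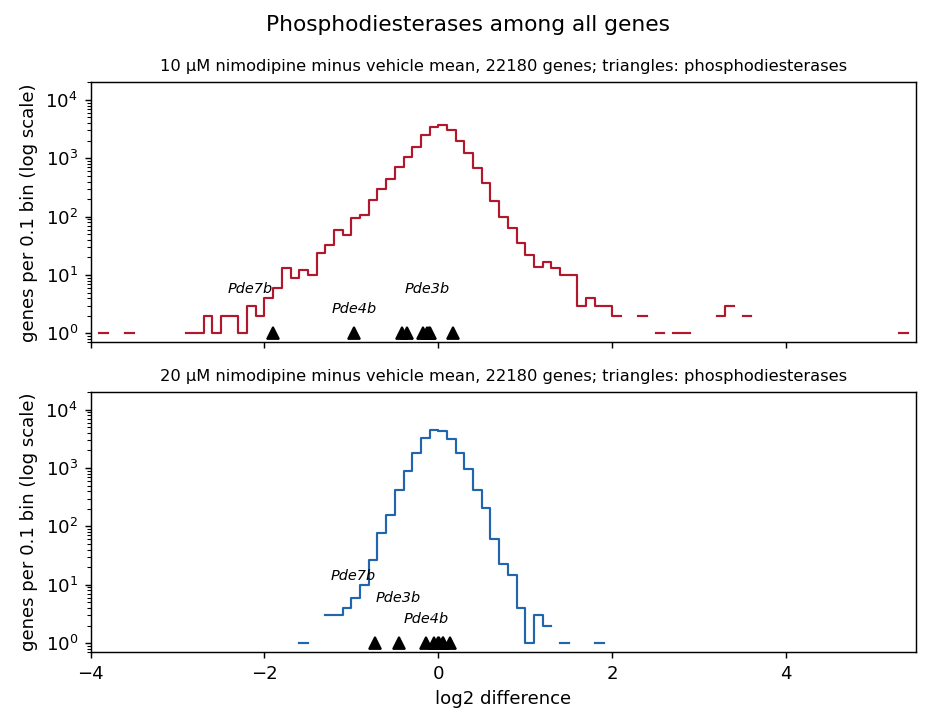
Number of genes per bin of 0.1 on the log2 scale (logarithmic vertical axis) for 10 µM nimodipine (top) and 20 µM nimodipine (bottom) minus the vehicle mean, over 22180 genes, with the 9 phosphodiesterases as triangles. Pde7b lies in the lower tail at both doses, at -1.91 and -0.73, and the distribution is wider at 10 µM, where 348 genes lie past 1 against 19 at 20 µM.

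The distributions over all genes place the family in the wider spread of the 10 µM array. Most triangles sit within the bulk of genes at both doses, and Pde7b is the only one in the tail of both panels.

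The genes closest to Pde7b in pattern over the 4 arrays were Mastl, Serpinb8 and Depdc1a, at distances of 0.30, 0.31 and 0.32 between log2 values centred on each gene's mean. Of 11636 genes compared, 24 lay within 0.5 of it. Mastl had differences of -1.72 at 10 µM and -0.39 at 20 µM, Serpinb8 -1.57 and -0.45, and Depdc1a -1.69 and -0.42. For Pde4b the closest were Garre1, Gzf1 and Knstrn, at distances of 0.036, 0.040 and 0.040, and 1460 genes lay within 0.5 of it. With 4 arrays, likeness of this kind is a description only.

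The 14 other genes of cyclic nucleotide phosphodiesterases, for catalytic or inhibitory subunits, were mostly dim, and only 4 had a mean that reached the median of all values. At 10 µM 7 were higher and 7 lower than the vehicle mean, with a median difference of 0.06, and at 20 µM again 7 and 7, with a median of -0.01. None of the 14 differed by 1.5-fold at either dose, beside 6.77% of all genes at 10 µM and 1.23% at 20 µM. In this list and each list below 0 genes passed the test, as over all genes (0%), so nothing is read from these counts. Pde9a, a cGMP-specific enzyme, had 5.05 at 10 µM and 5.43 at 20 µM, against 5.10 and 5.09 in vehicle, so only the 20 µM array lay apart, by 0.33. Pde6g, the inhibitory subunit of the photoreceptor enzyme, differed by 0.29 at 10 µM, less in size than the -0.38 between the vehicle arrays. Pde4c differed by -0.19 at 10 µM, beside 0.21 between the vehicle arrays, and Pde8b by 0.19 at 20 µM, beside -0.23.

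Among 19 adenylyl and guanylyl cyclase genes, 8 were higher and 11 lower at 10 µM, and 12 higher and 7 lower at 20 µM; 0 passed the test. Adcy7, an adenylyl cyclase abundant in blood and immune cells, had 7.73 at 10 µM and 8.35 at 20 µM, against 8.39 and 8.34 in vehicle. It was 1.56-fold lower at 10 µM, the only gene of the list past 1.5-fold, beside 6.77% of all genes. At 20 µM Adcy7 was within 0.02 of the vehicle mean. Adcy9 was 1.39-fold lower at 10 µM, and Adcy2 was 1.26-fold higher. Gucy1b1, the beta subunit of the nitric oxide receptor, differed by -0.11 at 10 µM and 0.17 at 20 µM, beside -0.59 between the vehicle arrays.

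The 12 measured receptors and G proteins upstream of cAMP were led by Ptgir, the Gs-coupled receptor for prostacyclin. Ptgir had 10.50 at 10 µM and 9.72 at 20 µM, against 9.77 and 9.74 in vehicle, and was 1.67-fold higher at 10 µM. Its 10 µM array stood above the other 3. Ptger4, a Gs-coupled receptor for prostaglandins of the E series, was 1.39-fold lower at 10 µM, and Vipr1, a receptor for vasoactive intestinal peptide, 1.30-fold lower. Vipr2, the other receptor for that peptide, differed by 0.22 at 10 µM and 0.18 at 20 µM, and Gnai1, an inhibitory G protein subunit, by 0.19 and 0.37. Of the list 8 genes were higher and 4 lower at 10 µM, and 0 passed the test.

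The largest 10 µM difference among genes of the cAMP effectors was that of Popdc3, which has a dim probe set. It differed by -0.35 at 10 µM and -0.28 at 20 µM, beside 0.12 between the vehicle arrays. Its nimodipine arrays lay below its vehicle arrays, as for 18.2% of all genes. Of 14 genes of protein kinase A, protein kinase G, EPAC and the Popeye proteins, 7 were higher and 7 lower at 10 µM. At either dose 0 differed by 1.5-fold, beside 6.77% of all genes at 10 µM and 1.23% at 20 µM, and 0 passed the test. Prkar1b, a regulatory subunit of protein kinase A, had 5.86 at 10 µM and 6.42 at 20 µM, against 5.73 and 5.99 in vehicle. Its difference of 0.56 at 20 µM exceeded the 0.26 between the vehicle arrays. The subunits Prkar2a and Prkar2b differed by 0.23 and -0.19 at 10 µM, Popdc2 by 0.24 and Rapgef3, which encodes an EPAC protein, by 0.16.

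Among 14 A-kinase anchors and proteins that bind phosphodiesterases or export cyclic nucleotides, 5 were higher and 9 lower at 10 µM, and 0 passed the test. Pde6d, a carrier of prenylated proteins that is named for its binding to the photoreceptor enzyme and has no phosphodiesterase activity, was higher on both nimodipine arrays than on both vehicle arrays. It had 9.16 at 10 µM and 8.81 at 20 µM, against 8.55 and 8.66 in vehicle. Abcc5, an exporter of cyclic nucleotides, had 8.66 at 10 µM and 8.34 at 20 µM, against 8.12 and 8.19 in vehicle, and also did not overlap. Such a lack of overlap, with nimodipine above, held for 19.2% of all genes. Akap13 and Akap8 differed by -0.37 and -0.34 at 10 µM, and Akap7 by -0.24 at 20 µM, beside 0.42 between its vehicle arrays.

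Of 7 CREB factors and coactivators, the 10 µM array was lower than the vehicle mean for 5 and the 20 µM array for 6; 0 passed the test. Ep300, a histone acetyltransferase that CREB recruits, was lower at both doses, 1.57-fold at 10 µM and 1.19-fold at 20 µM, with a vehicle difference of -0.24. Crtc3 and Crtc2, coactivators held in the cytoplasm until cAMP or calcium releases them, differed by -0.26 and -0.11 at 10 µM and by -0.40 and -0.30 at 20 µM. Crebbp, the relative of Ep300, differed by 0.18 at 10 µM.

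Of 15 genes known as targets of cAMP and CREB, 10 were lower and 5 higher at each dose, not all of them the same genes; 4 were lower by 1 or more at 10 µM (1.06% of all genes), and 0 passed the test. The median difference of the list was -0.23 at 10 µM and -0.09 at 20 µM, beside -0.14 between the vehicle arrays. Rgs2, a regulator that shuts off Gq signalling, had 7.80 at 10 µM and 9.62 at 20 µM, against 9.43 and 9.53 in vehicle, and was 3.20-fold lower at 10 µM. Its pattern differed from that of Pde7b in that the 20 µM array lay above both vehicle arrays. The orphan nuclear receptors Nr4a1 and Nr4a2 were 2.67-fold and 2.40-fold lower at 10 µM, and their vehicle arrays differed by -0.35 and -0.55. Nr3c1, the glucocorticoid receptor, was lower by 2.21-fold at 10 µM and by 1.14-fold at 20 µM. Per1, a clock gene, had the largest difference of the list at 20 µM, -0.47, beside -0.28 between the vehicle arrays. Several of these genes also respond to calcium and to growth factors, so the list is not a readout of cAMP alone.

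**Figure D4:**
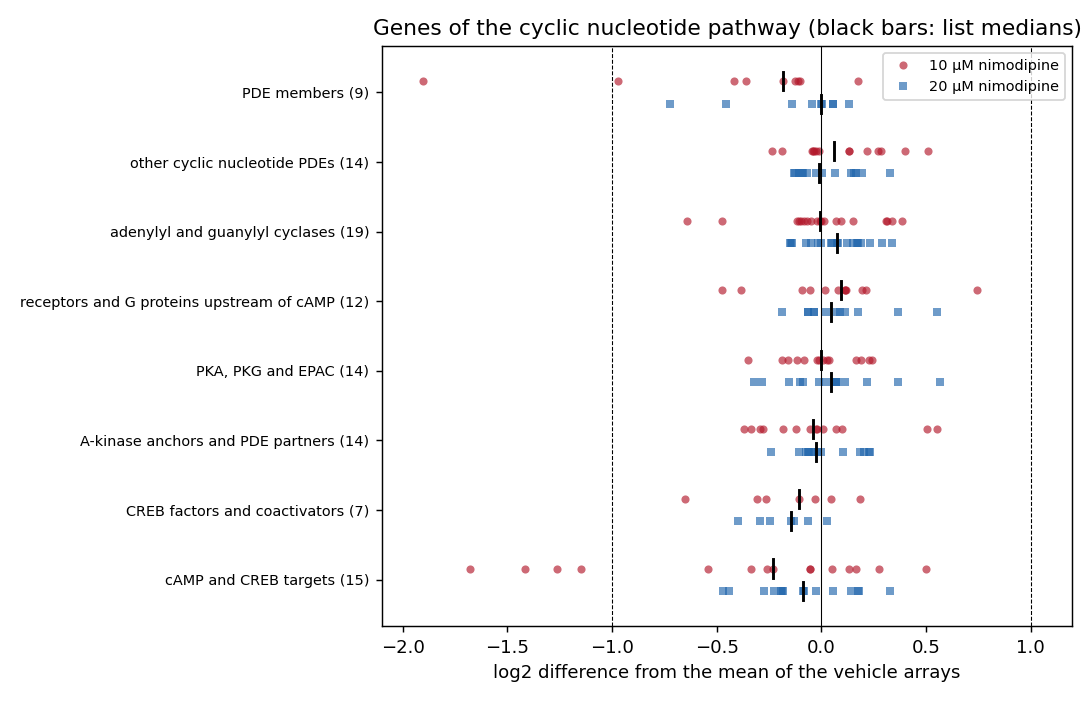
Log2 difference from the vehicle mean for each measured gene of the cyclic nucleotide pathway at 10 µM nimodipine (circles) and 20 µM nimodipine (squares), by list, with the number of genes in brackets, list medians as black bars and dashed lines at a difference of 1. The genes past -1 are Pde7b and 4 targets of cAMP and CREB, all at 10 µM, and the list medians lie between -0.23 and 0.10.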

How the data were processed

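RNA from 4 samples of N9 cells was hybridised to Affymetrix arrays after labelling with the WT PLUS kit, per the labels' protocols. The authors deposited log2 values, 1 per probe set, and the tools were RMA and Affymetrix Expression Console 1.2.1.20, per the submitters' processing notes. RMA gives every array the same distribution, which hides any change common to most genes; the array medians lay between 5.02 and 5.06. The deposited log2 values carry no detection call, and precision is limited by the number of arrays.

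Of 41345 probe sets, 23521 had 1 gene symbol in the platform annotation, 1814 had several and 16010 were not listed; only the first kind was named. The probe set with the highest mean per gene left 22180 genes. Nimodipine and vehicle were compared with limma 3.58.1 in R 4.3.3 (lmFit, eBayes), 2 arrays against 2, with Benjamini-Hochberg adjustment over all genes and a threshold of 0.05, tested on simulated data. With 1 array per dose, the log2 differences of single doses from the vehicle mean are given untested and counted at 1; a fit of 3 groups with limma, in which only the vehicle pair gives residual spread before moderation across genes, was an alternative.

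The 9 genes, the pathway lists and the tests were chosen with earlier results of these data known. Besides the 9 members, named genes were, for each pathway list, the 4 with the largest difference at 10 µM and the 1 with the largest at 20 µM among genes whose mean reached the median of all values, and the 3 genes nearest in pattern to Pde7b and to Pde4b, the member with the next largest difference at 10 µM. Predicted genes and small RNAs were passed over in the last search. Popdc3, whose mean did not reach that median, is named outside this rule.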

Additional observations from a re-analysis of the deposited data

How the results depend on the processing

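The alternatives were averaging a gene's probe sets, cyclic loess, equal array medians, dim probe sets left out, all probe sets, eBayes with trend or robust, dose as a number, an adjusted p of 0.10, a fit of 3 groups, a count at 1.5-fold, and leaving out each array. No paired analysis was possible because the labels number only the vehicle arrays and do not match them to doses. For the comparison of nimodipine with vehicle, limma called 0 genes and 0 members under each alternative, except that leaving out single arrays gave 0 to 353 genes and 0 to 2 members, the highest counts without the 20 µM array, where the lone 10 µM array is assumed to vary like the vehicle pair. Genes past 1 at 10 µM numbered 348, and 348 to 407 with single arrays left out; 1501 were past 1.5-fold. Genes past 1 at 20 µM numbered 19, and 19 to 38 with single arrays left out, 37 without vehicle 1 and 38 without vehicle 2; 272 were past 1.5-fold, and the fit of 3 groups called 0, with 1418 at an unadjusted p under 0.05 (limma). Members past 1 at 10 µM numbered 1, and 2 with equal array medians or cyclic loess. Leaving out single arrays gave 1 to 2, with Pde4b at -1.01 without vehicle 2. At the lower limit of 1.5-fold there were 2. The fit of 3 groups counts by adjusted p and not by the size of a difference. Members past 1 at 20 µM numbered 0 (0 to 0 with single arrays left out) and 1 at 1.5-fold. With the 10 µM array left out the mean difference of Pde7b was -0.73, and with the 20 µM array left out -1.91; that of Pde4b was -0.14 and -0.97. Of 171 recomputed differences of the members, 17 changed sign, in 7 of the 9 genes and in neither Pde7b nor Pde4b. Among these, Pde3b at 10 µM was 0.08 without vehicle 1, the mean differences of Pde4a and Pde8a were 0.06 and 0.05 with the 10 µM array left out, and that of Pde1b was -0.10 with the 20 µM array left out.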
